A study of Homo sapiens with 8 samples.

Results

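Calcitriol, the hormonally active form of vitamin D, was compared alone with no treatment in PC-3 cells, an established human prostate cancer line of epithelial origin. The comparison rests on 4 of the 8 arrays of the study: those titled for calcitriol, replicates A and B, against those titled for control, replicates A and B. Treated cells received calcitriol at 10 nM for 24 h in six-well plates, in RPMI medium with serum. Control cells are labelled as not treated, and neither a vehicle nor their incubation time is given. Each group holds 2 experiments that the labels describe as independent (n = 2). The other 4 arrays hold cells given TGF-β1 at 5 ng/mL with and without calcitriol at the same dose, and serve here as a second place to look at the hormone. Expression was read on Clariom D arrays as deposited log2 values. Of 33616 genes with exactly 1 symbol, 23854 passed the filter on low values and were tested, and 14793 of these are protein-coding.

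Calcitriol acts through the vitamin D receptor, a nuclear receptor that pairs with retinoid X receptors and binds short repeated DNA hexamers near its target genes. The target best known across tissues is CYP24A1, the enzyme that starts the breakdown of calcitriol and so closes a feedback loop. In prostate cells the hormone is known for slowing growth and for inducing IGFBP3, a secreted protein that binds insulin-like growth factors.

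The 4 arrays were alike in scale, with medians from 4.33 to 4.35 on the log2 scale. The gap between the positive and negative control features was 7.02 and 7.04 in the controls and 6.93 and 7.02 with calcitriol. Across genes the controls correlated with each other at r = 0.988 and the calcitriol arrays at r = 0.990. Control replicate B had the lower correlations with the calcitriol arrays, at 0.986 and 0.988, against 0.990 and 0.989 for control replicate A. All 6 epithelial markers (keratins, EPCAM and E-cadherin) lay above background on every one of these arrays, at a mean level of 10.6 to 10.7. KLK3 and KLK2, listed as genes expected low in PC-3 cells, also lay above it on all 4 arrays, at 6.64 to 7.14 and 5.19 to 5.61. The other 4 genes of that list had no feature with exactly 1 symbol. Background means the 95th percentile of the array's negative control features. Of the fibroblast markers 4 of 10 lay above it on all 4 arrays and 3 on none, of the leukocyte markers 4 of 12 and 5 on none, and of the endothelial markers 5 of 9 and 2 on none. Their summed log2 levels ran from 53.5 to 54.4 in control and were 53.0 and 52.9 with calcitriol for fibroblasts, 58.1 to 61.3 against 56.2 to 58.3 for leukocytes, and 48.7 to 50.3 against 48.4 to 49.4 for endothelium. Among the leukocyte markers CD3D, CD4, CD8A, MS4A1 and LYZ lay below background on all 4 arrays. CD14, CD68, ITGAM and CSF1R lay above it on all 4, CD3E and CD163 on 3 and PTPRC on 1. The part of these marker genes in any result below was not tested.

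Only CYP24A1 and IGFBP3 passed the test across all genes, which is 0.00838% of those tested, and both rose. CYP24A1 stood at 5.48 and 5.51 in the controls and at 9.94 and 9.96 with calcitriol. The replicates lay close together and the groups far apart. Its log2 difference was 4.46 ± 0.35 (SE, n = 2 per group, 95% interval 3.64 to 5.28), or 21.9-fold, with an adjusted p of 0.0247 in limma. The error of this gene comes from all 4 groups and is wider than the spread of the 4 arrays here, because the arrays with both agents stood at 10.92 and 9.71. RNA came from whole wells, so more cells expressing a gene and more RNA per cell cannot be told apart.

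IGFBP3 stood at 9.84 and 9.92 in the controls and at 11.51 and 11.52 with calcitriol. It was already among the brighter genes before treatment and rose 3.11-fold (log2 1.64 ± 0.11, SE, n = 2 per group, limma adjusted p = 0.0153). With TGF-β1 present, IGFBP3 stood at 11.76 and 11.88 without calcitriol and at 12.42 and 12.22 with it. TGF-β1 alone thus lay above calcitriol alone, and the difference that calcitriol made there was 0.49. The difference between both effects had an adjusted p of 0.552 in limma. Leaving out any 1 of the control, calcitriol or TGF-β1 arrays left 0 genes past the threshold, while the log2 difference stayed between 1.59 and 1.68 for IGFBP3 and between 4.44 and 4.47 for CYP24A1.

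**Figure D1:**
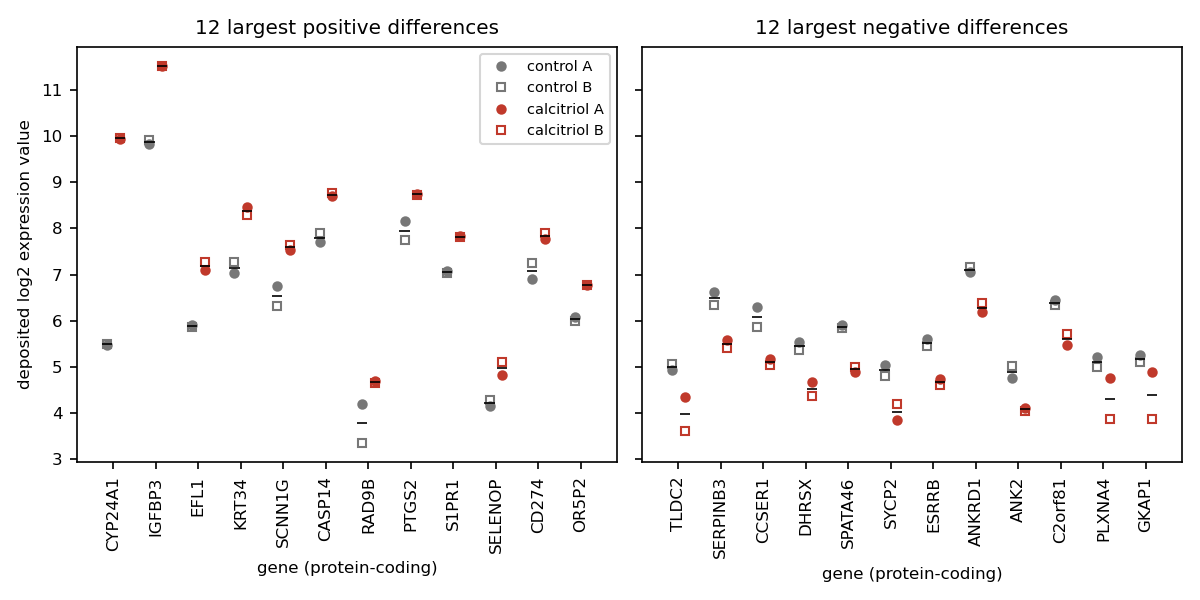
Deposited log2 value on each control (grey) and calcitriol (red) array for the 12 protein-coding genes with the largest positive and the 12 with the largest negative difference by the naming rule; filled circles are replicate A, open squares replicate B, and black ticks the mean of the pair. CYP24A1 goes from about the level of EFL1 to 9.94 and 9.96, while most of the genes on the right start below 6 on the log2 scale.

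The region around the start of IGFBP3 is printed with the hexamers of the receptor marked, and binding to it was not measured. It is set beside the windows of EFL1 and OR5P2, genes whose calcitriol arrays lay higher in both pairs of groups. The sequences are from RefSeq on GRCh38.p14, 250 bases before to 50 after the first listed start, on the gene's own minus strand, 5′ to 3′. Capitals mark the receptor's hexamer AGGTCA, its form AGTTCA, the form GGGTCA or the form GGTTCA, each read on either strand.

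IGFBP3, chr7:45921223-45921522: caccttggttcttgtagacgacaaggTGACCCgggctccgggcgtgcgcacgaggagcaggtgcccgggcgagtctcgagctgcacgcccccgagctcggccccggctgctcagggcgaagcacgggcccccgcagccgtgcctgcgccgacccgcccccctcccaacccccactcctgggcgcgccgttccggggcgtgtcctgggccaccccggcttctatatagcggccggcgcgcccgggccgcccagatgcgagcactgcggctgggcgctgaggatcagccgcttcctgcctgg

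EFL1, chr15:82262685-82262984: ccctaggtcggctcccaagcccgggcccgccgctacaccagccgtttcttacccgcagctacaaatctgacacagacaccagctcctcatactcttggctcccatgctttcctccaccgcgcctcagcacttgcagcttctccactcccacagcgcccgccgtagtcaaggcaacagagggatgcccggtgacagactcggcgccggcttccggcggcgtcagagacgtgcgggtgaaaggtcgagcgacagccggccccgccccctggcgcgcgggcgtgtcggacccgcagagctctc

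OR5P2, chr11:7796893-7797192: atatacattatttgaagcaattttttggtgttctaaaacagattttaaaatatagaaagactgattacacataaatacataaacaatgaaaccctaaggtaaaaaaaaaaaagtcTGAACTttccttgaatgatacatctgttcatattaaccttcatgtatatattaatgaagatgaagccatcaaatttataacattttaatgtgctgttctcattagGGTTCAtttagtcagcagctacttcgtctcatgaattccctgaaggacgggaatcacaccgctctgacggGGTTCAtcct

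The IGFBP3 window holds 1 such hexamer, TGACCC on the strand shown, whose first base is at position -224 from the start. The EFL1 window holds none and the OR5P2 window 3, which overlap no other match. Among the 12 genes with the largest positive differences, 5 of the 10 with a window in the table hold at least 1 hexamer, or 50%. Among the 12 with the largest negative differences it was 1 of 11, or 9.1%. CYP24A1, which had the largest difference, and SCNN1G have no window and enter none of the counts given here. Each gene was counted by its first listed start only. ANK2, among those with negative differences, holds hexamers in windows of other listed starts. Over the 12035 tested protein-coding genes with a window 33.3% hold at least 1, and over all 27305 genes with a window 38.7%. A pair of these hexamers in the same orientation with 3 bases between them, on either strand, occurs in 21 of the 27305 windows, or 0.0769%, in 0 of the 10 windows and in 0 of the 11 windows. These matches describe letters in a short window only.

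EFL1 and the keratin KRT34 came next in size among protein-coding genes. EFL1, a GTPase that helps to mature the large ribosomal subunit, stood at 5.90 and 5.87 in the controls and at 7.10 and 7.26 with calcitriol. Its difference of 1.30 ± 0.12 had an adjusted p of 0.0672 in limma, and with TGF-β1 present it was 1.07. The adjusted p of EFL1 was 0.0321 among genes above background, 0.0322 among protein-coding genes only and 0.0332 after loess scaling on them, and it passed with a mean-variance trend as well. The transcribed pseudogene EFL1P1, outside the naming rule and picked after its values were seen, went from 4.82 and 4.14 to 5.59 and 5.65. Its 4.14 lies below background. Probes for near-identical copies can share signal, so the values of EFL1 and EFL1P1 are uncertain as to which copy they measure. KRT34, a hair-type keratin, stood at 7.03 and 7.28 and then at 8.47 and 8.30. Its difference was 1.23 ± 0.14, with a limma adjusted p of 0.12. With TGF-β1 present its difference was 0.56, from 8.84 and 8.99 to 9.59 and 9.37.

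None of the other large positive differences passed the adjusted threshold. SCNN1G, a subunit of the epithelial sodium channel, stood at 6.74 and 6.32 in the controls and at 7.53 and 7.65 with calcitriol, a difference of 1.06 ± 0.15 (limma adjusted p = 0.285). CASP14, a caspase of epidermal cornification, stood at 7.71 and 7.89 and then at 8.70 and 8.76, a difference of 0.93 ± 0.11 (limma adjusted p = 0.133). In both genes the groups did not overlap, which the naming rule requires, so this is no support of its own. Upward non-overlap occurred in 13.5% of all genes tested and in 10% of the protein-coding ones. PTGS2, the inducible cyclooxygenase that starts prostaglandin synthesis, stood at 8.16 and 7.75 and then at 8.74 and 8.73. S1PR1, a receptor for sphingosine 1-phosphate, stood at 7.08 and 7.03 and then at 7.83 and 7.81. CD274, which encodes the immune checkpoint ligand PD-L1, stood at 6.90 and 7.25 and then at 7.76 and 7.90. The calcitriol arrays of these 3 genes lay close together, and the log2 differences were 0.78, 0.77 and 0.76. OR5P2, an olfactory receptor gene, stood at 6.08 and 5.99 and then at 6.78 on both arrays, and its other feature differed by 0.47. SELENOP, a selenium transport protein, lay below background in both controls and was at least 1.19-fold higher with calcitriol (limma adjusted p = 0.445). Bounds of this kind, here and below, allow for background but not for replicate error. RAD9B, a relative of the checkpoint clamp protein RAD9, lay below background in both controls, at 4.20 and 3.36. With calcitriol it stood at 4.69 and 4.65, barely above the backgrounds of 4.67 and 4.62 of those arrays. No minimum fold difference can be given for it.

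**Figure D2:**
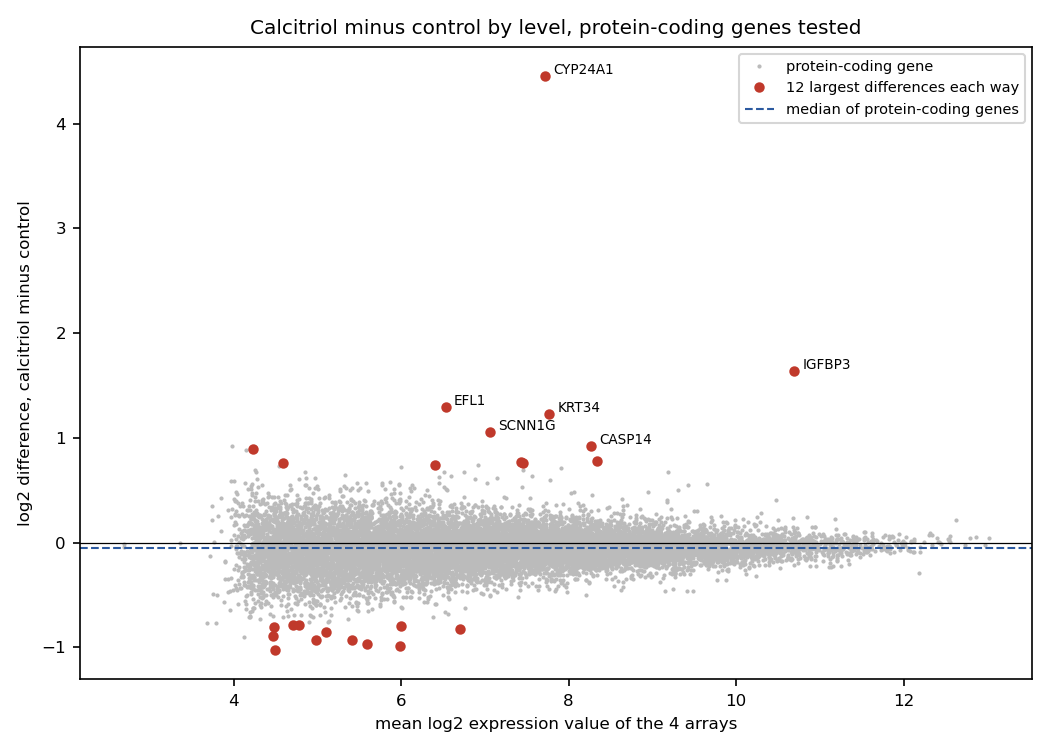
Log2 difference, calcitriol minus control, against the mean log2 value of the 4 arrays for the 14793 protein-coding genes tested (grey), with the 24 genes of the naming rule in red, 6 of the positive ones labelled and the median of -0.05 dashed. CYP24A1 and IGFBP3 stand apart, and below a level of about 6 the cloud is widest, which is where most of the largest negative differences lie.

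None of the negative differences passed the adjusted threshold. SERPINB3, a clade B serpin known as squamous cell carcinoma antigen, stood at 6.63 and 6.34 in the controls and at 5.59 and 5.40 with calcitriol (difference -0.99 ± 0.25, limma adjusted p = 0.563). Its near-identical neighbour SERPINB4 stood at 5.60 and 5.25 and then at 4.57 and 4.96, and probes may not tell the 2 genes apart. ANKRD1, a transcript known as a target of the Hippo effector YAP, stood at 7.06 and 7.16 and then at 6.19 and 6.38. CCSER1 stood at 6.30 and 5.87 and then at 5.18 and 5.05, and SPATA46 at 5.91 and 5.84 and then at 4.89 and 5.01. In each of these 5 genes both calcitriol arrays lay below both controls, which the naming rule requires of all but SERPINB4. Downward non-overlap occurred in 23.2% of all genes tested and in 28.3% of the protein-coding ones. C2orf81 differed by -0.80. DHRSX, a dehydrogenase family member, was at least 1.75-fold lower, TLDC2 at least 1.28-fold, SYCP2, a protein of the meiotic synaptonemal complex, at least 1.21-fold and ANK2, an ankyrin, at least 1.18-fold, each with both calcitriol arrays below background. The limma adjusted p of these 4 lay between 0.549 and 0.655, and the other ANK2 feature differed by 0.39 in the opposite direction. The orphan nuclear receptor ESRRB, the semaphorin receptor PLXNA4 and the kinase anchoring protein GKAP1 had 1 of 2 calcitriol arrays above background. ESRRB stood at 5.60 and 5.45 and then at 4.74 and 4.61, PLXNA4 at 5.21 and 5.00 and then at 4.77 and 3.87, and GKAP1 at 5.26 and 5.10 and then at 4.90 and 3.88.

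The second pair of groups gives the same agent on 4 arrays whose own difference did not enter the choice of these genes. Those arrays did enter the filter, the choice of feature for each gene and the estimate of the spread behind the p-values. Of the 12 genes with the largest positive differences, 10 were also higher when calcitriol was added to TGF-β1, and in all 10 both arrays lay above both TGF-β1 arrays. Over protein-coding genes above background 36.1% were higher there and 13.3% lay above both arrays. Of the 12 with the largest negative differences, 3 were also lower, and 1, ESRRB, lay below both arrays, against 63.9% and 32.3%. S1PR1 and RAD9B were the exceptions among the first 12. S1PR1 stood at 8.07 and 8.27 with TGF-β1 and at 8.00 and 8.13 with both, all above the 7.83 and 7.81 of calcitriol alone. SERPINB3 stood at 4.09 and 4.93 with TGF-β1 and at 4.66 and 4.49 with both, below background on most of these arrays. With TGF-β1 present, 0 genes passed the adjusted threshold for calcitriol in limma, while 2210, or 9.26%, had an unadjusted p under 0.05. For the difference between the effects 0 passed in limma, and 1229, or 5.15%, had an unadjusted p under 0.05.

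The carry-over also varied with size. Protein-coding genes were grouped by their log2 difference among those with an unadjusted p under 0.05, non-overlapping groups and a level above background. Of those at 0.75 or more, 81.8% of 11 had the same sign with TGF-β1, against 76.6% of 47 between 0.5 and 0.75 and 60.1% of 138 between 0.25 and 0.5. In the negative direction the order ran the other way, with 33.3% of 15 at 0.75 or more, 70% of 100 and 72.6% of 541. Each share is read against the 36.1% that were higher and 63.9% that were lower whatever their first difference.

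**Figure D3:**
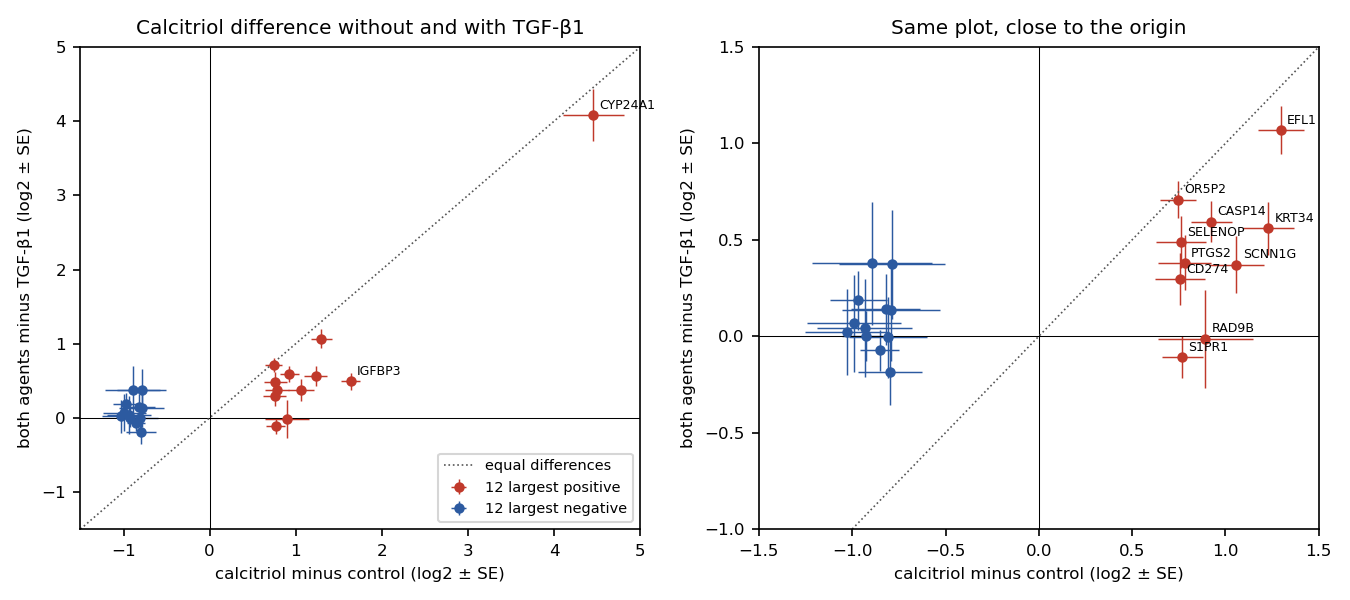
Log2 difference of calcitriol against control (horizontal) and of both agents against TGF-β1 alone (vertical), with bars of 1 SE, for the 12 genes with the largest positive (red) and 12 with the largest negative differences (blue); the dotted line marks equal differences and the right panel enlarges the origin. The red points reach down from CYP24A1, at 4.46 and 4.09, to S1PR1, at 0.77 and -0.11, and the blue points sit around 0 on the vertical axis.

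Known targets of the vitamin D receptor were a mixed group. Of 66 listed genes 54 were tested, and their median difference was 0.01, against -0.05 for all protein-coding genes. With calcitriol 17 of the 54 lay above both controls, or 31.5% against 10% of protein-coding genes, and 10 lay below both, or 18.5% against 28.3%. At an unadjusted p under 0.05 there were 9 higher and 3 lower members, against 1.51% and 5.2% of protein-coding genes. With TGF-β1 present the counts of non-overlapping members were also 17 and 10, against 13.3% and 31.6% of protein-coding genes, but not all were the same members. HPGD, STEAP4 and ZNF257 lay below both controls and then above both TGF-β1 arrays, and FBP1 went the opposite way. Without control replicate B the list's median was -0.01, and after loess scaling on protein-coding genes it was 0.07. The list holds some genes that were known to respond in these very arrays, so its counts are no independent evidence of direction.

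Members named next, other than SERPINB1, KLK6, TNFAIP3, STEAP4 and EPHB4, were picked after their values were seen. SERPINB1, a leukocyte elastase inhibitor, stood at 7.67 and 7.45 in the controls and at 8.27 and 8.26 with calcitriol. FAM20C, the kinase of secreted phosphoproteins, stood at 8.94 and 8.77 and then at 9.57 and 9.48. TREM1, a receptor of myeloid cells, stood at 7.21 and 7.01 and then at 7.70 and 7.90. Their differences of 0.71, 0.67 and 0.69 were 0.30, 0.44 and 0.41 with TGF-β1 present, non-overlapping in both settings. KLK6, a kallikrein protease, differed by 0.64 and 0.27, TNFAIP3, a brake on NF-kB signalling, by 0.37 and 0.33, and TXNRD1, a thioredoxin reductase, by 0.23 and 0.26. On the other side EPHB4, an ephrin receptor, differed by -0.41 and by -0.28 with TGF-β1. HPGD, which inactivates prostaglandins, stood at 9.01 and 8.89 and then at 8.66 and 8.70, whereas with TGF-β1 present it was higher by 0.52. STEAP4, a metalloreductase, likewise differed by -0.26 and then by 0.39.

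**Figure D4:**
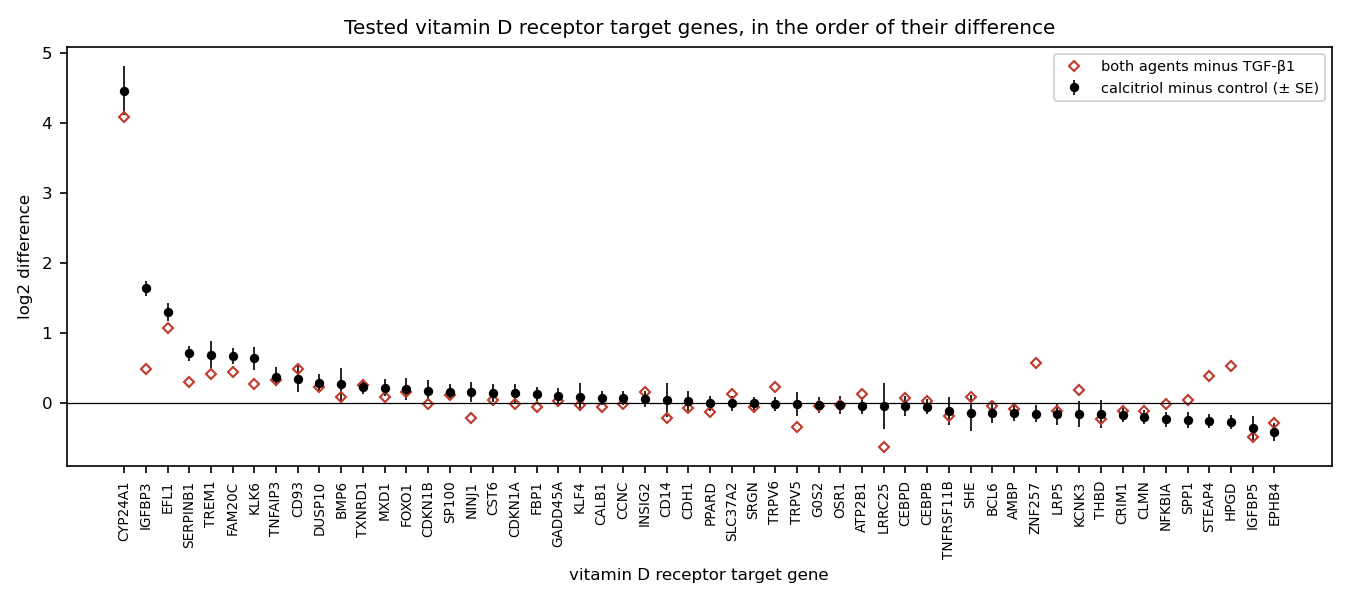
Log2 difference of calcitriol against control with 1 SE (black) and of both agents against TGF-β1 alone (red diamonds) for the 54 tested vitamin D receptor target genes, ordered by the black points. CYP24A1, IGFBP3 and EFL1 lead at 4.46, 1.64 and 1.30, a further group up to about 0.7 follows, and most members lie close to 0 on the log2 scale.

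Several classical responders differed by about their error or less. TRPV6, the calcium channel that calcitriol induces in gut, stood at 5.99 and 5.97 in the controls and at 5.96 and 5.98 with calcitriol. CDKN1A, the cell cycle inhibitor p21, stood at 6.71 and 6.86 and then at 6.89 and 6.96, a difference of 0.14 ± 0.14. Beyond these, the receptor's own transcript VDR stood at 9.53 and 9.52 and then at 9.22 on both arrays, a difference of -0.30 ± 0.10 with a limma adjusted p of 0.636, and it was -0.26 with TGF-β1 present. Its partner RXRA differed by -0.00 ± 0.11, with a sign that depends on the scaling, and CYP27B1, which makes calcitriol, by -0.10 ± 0.14. Of 15 tested genes of the receptor's machinery 1 lay above and 3 below both controls, or 6.67% and 20% against 10% and 28.3% of protein-coding genes, among them TBL1X, a part of nuclear receptor corepressor complexes, at -0.24. The 20 tested genes of the insulin-like growth factor axis had a median of -0.04, which was -0.0047 without control replicate B and 0.03 after loess scaling. Of these 15% lay above and 30% below both controls, against 10% and 28.3% of protein-coding genes. HTRA1, a protease that can cleave such binding proteins, stood at 8.09 and 8.02 and then at 8.41 and 8.60, and STC2, a stanniocalcin, differed by -0.29.

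Protein-coding genes as a class sat slightly lower with calcitriol. Their median difference was -0.05, and 64.2% were lower, against 35.8% higher. Both calcitriol arrays lay below both controls in 28.3% and above them in 10%. Pseudogenes, 5745 of those tested, ran the other way, with a median of 0.04 and with 21.6% above and 12.9% below both controls. Within protein-coding genes the median ran from -0.08 in the quartile with the lowest levels to -0.04 in the quartile with the highest. The share below both controls nevertheless rose from 23.9% to 33.7% between these quartiles, and the share above both from 9.3% to 11.2%. The shares of the lists below are set against all protein-coding genes and were not matched for level. Centred per gene, the protein-coding median was 0.02 and 0.03 on the controls, -0.01 on calcitriol replicate A and -0.04 on replicate B. With TGF-β1 present the class medians were -0.06 and 0.08. The deposited values had been brought to a common scale, so these shifts are relative to the other features of each array, and an exact permutation of 2 against 2 arrays cannot go below p = 0.333 for such a shift.

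Some pathways lay lower than this class shift by small, shared steps. Of 52 tested nuclear genes of oxidative phosphorylation, the respiratory chain and ATP synthase, 28 lay below both controls, or 53.8% against 28.3%, and 1 lay above, which was SDHA. Their median was -0.10, and 0 reached an unadjusted p under 0.05 or an adjusted one in limma. With TGF-β1 present the median was -0.14 and 31 of the 52 lay below both TGF-β1 arrays. Among protein-coding genes these were -0.06 and 31.6%. Other lists lay low there too, among them 31 of 48 cytosolic ribosomal protein genes and 21 of 38 replication genes below both TGF-β1 arrays. Single members of the oxidative phosphorylation list, picked after their values were seen, differed without TGF-β1 by steps of the order of its median. NDUFA8, of complex I, stood at 7.66 and 7.94 in the controls and at 7.57 and 7.59 with calcitriol, and SDHD, of complex II, at 9.46 and 9.37 and then at 9.17 and 9.26. Of 29 genes of cholesterol and fatty acid synthesis, 16 lay below both controls, or 55.2%, with a median of -0.11 and 0 at an unadjusted p under 0.05. The sterol regulators SREBF2 and SREBF1, also picked by value, stood at 8.49 and 8.43 and then at 8.16 and 8.24, and at 9.25 and 9.33 and then at 9.10 and 9.04. With TGF-β1 present the cholesterol and fatty acid median was -0.03 and 8 of the 29 lay below both TGF-β1 arrays. Against the -0.06 and 31.6% of protein-coding genes, this list was not lower than its class there. After arrays were scaled by loess on protein-coding genes, which set the class median near 0, the medians were -0.065 and -0.069.

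Among 21 tested prostaglandin genes PTGS2, at the head of the pathway, was the single one above both controls, or 4.76% against 10% of protein-coding genes. Another 9, or 42.9%, lay below both, against 28.3%. Thromboxane synthase TBXAS1 stood at 7.03 and 6.77 in the controls and at 6.17 and 6.26 with calcitriol, a difference of -0.68 ± 0.12 (limma adjusted p = 0.445). Prostaglandin D synthase PTGDS stood at 6.05 and 5.96 and then at 5.66 and 5.50. The receptor PTGER2, picked by value, differed by -0.30, and HPGD by -0.27. The list's median was -0.16, or -0.076 after loess scaling on protein-coding genes. With TGF-β1 present it was -0.08, against -0.06 for protein-coding genes, and TBXAS1 differed by -0.17 and PTGDS by -0.13. There 5 of the 21 lay below and 3 above both TGF-β1 arrays, against 31.6% and 13.3% of protein-coding genes.

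Of 29 extracellular matrix genes 11, or 37.9%, lay below and 4, or 13.8%, above both controls, against 28.3% and 10% of protein-coding genes, with a median of -0.14, or -0.08 without control replicate B. The collagen chains COL5A1, at 5.98 and 6.22 and then 5.60 and 5.53, and COL5A2, at 7.19 and 6.96 and then 6.74 and 6.67, were lower, whereas fibronectin FN1 stood at 8.93 and 9.01 and then at 9.52 and 9.22. Among 31 matrix proteases and inhibitors 9, or 29%, lay above and 6, or 19.4%, below, against 10% and 28.3%. At an unadjusted p under 0.05 there were 6 higher and 1 lower, against 1.51% and 5.2% of protein-coding genes, and 0 members of either list passed the adjusted threshold in limma. The collagenase MMP1 stood at 7.49 and 7.47 and then at 8.21 and 7.94, the metalloprotease ADAMTS1 at 7.12 and 7.23 and then at 7.73 and 7.70, and the inhibitor TIMP1 at 10.30 and 10.24 and then at 10.68 and 10.67. With TGF-β1 present their differences were 0.08, 0.27 and 0.23. TMPRSS2, a serine protease of luminal prostate cells, stood at 6.95 and 6.71 and then at 7.58 and 7.32. Its difference of 0.62 ± 0.15 was 0.63 with TGF-β1, and its other feature differed by 0.00.

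Of 38 NF-kB targets and cytokines 15, or 39.5%, lay below and 5, or 13.2%, above both controls, against 28.3% and 10% of protein-coding genes. Their median was -0.10, which was -0.04 after loess scaling and -0.14 without control replicate B. The chemokine CCL2 stood at 5.34 and 5.21 in the controls and below background with calcitriol, at least 1.55-fold lower (limma adjusted p = 0.403), and CXCL8, interleukin 8, stood at 10.14 and 9.98 and then at 9.70 and 9.71. Of 25 AP-1 and immediate early genes 3 were higher and 6 lower at an unadjusted p under 0.05, against 1.51% and 5.2% of protein-coding genes. JUNB stood at 6.23 and 6.13 and then at 6.92 and 6.79, whereas JUND stood at 6.16 and 5.92 and then at 5.61 and 5.62 and EGR1 at 5.33 and 5.09 and then at 4.76 and 4.81. The phosphatase DUSP1, which switches off MAP kinases, stood at 6.29 and 6.30 and then at 6.92 and 6.68. With TGF-β1 the differences were 0.08 for JUNB and for DUSP1, 0.10 for JUND and -0.06 for EGR1. WNT5A, a non-canonical Wnt ligand, differed by 0.56, with 0.27 on its other feature, and by -0.04 with TGF-β1. Of 38 Wnt pathway genes 3, or 7.89%, lay above and 11, or 28.9%, below both controls, against 10% and 28.3% of protein-coding genes. ROR1 and WNT7B of this list differed by -0.37 and -0.39, and by -0.34 and -0.41 with TGF-β1. FGF5, a fibroblast growth factor, differed by 0.61. CLDN1, a tight junction protein, differed by -0.46.

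Genes of cell division showed small differences. Of 46 mitotic genes 19, or 41.3%, lay below and 2, or 4.35%, above both controls, and of 38 replication genes 15, or 39.5%, and 2, or 5.26%. Among protein-coding genes these shares were 28.3% and 10%, which also apply to the other counts against the controls here. Their medians were -0.03 and -0.07, against -0.05 for the class, and after loess scaling on protein-coding genes they were 0.00 and -0.04. Without control replicate B they were -0.07 and -0.06. With TGF-β1 present they were -0.10 and -0.14, against -0.06 for the class. There 22 of the 46 and 21 of the 38 lay below both TGF-β1 arrays, against 31.6% of protein-coding genes. ASPM, a spindle pole protein, stood at 8.87 and 8.85 and then at 8.49 and 8.52, and SPC24, of the kinetochore, at 8.01 and 7.94 and then at 7.69 and 7.65. LIG1, the replicative DNA ligase, differed by -0.30 and by -0.81 with TGF-β1 present. Among 27 G1 cyclins, MYC genes and cyclin-dependent kinase inhibitors 5, or 18.5%, lay above and 7, or 25.9%, below. MXI1, an antagonist of MYC, differed by 0.26. MYC itself, picked by value, stood at 9.41 and 9.53 and then at 9.19 and 9.24, a difference of -0.25 ± 0.12 and of -0.20 with TGF-β1. Of 48 cytosolic ribosomal protein genes 19, or 39.6%, lay below and 3, or 6.25%, above, with a median of -0.04. Of 31 ribosome biogenesis genes 13, or 41.9%, lay below and 1, or 3.23%, above, with a median of -0.08. With TGF-β1 present 31 of the 48 and 12 of the 31 lay below both TGF-β1 arrays. The 22 housekeeping genes had a median of -0.02.

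**Figure D5:**
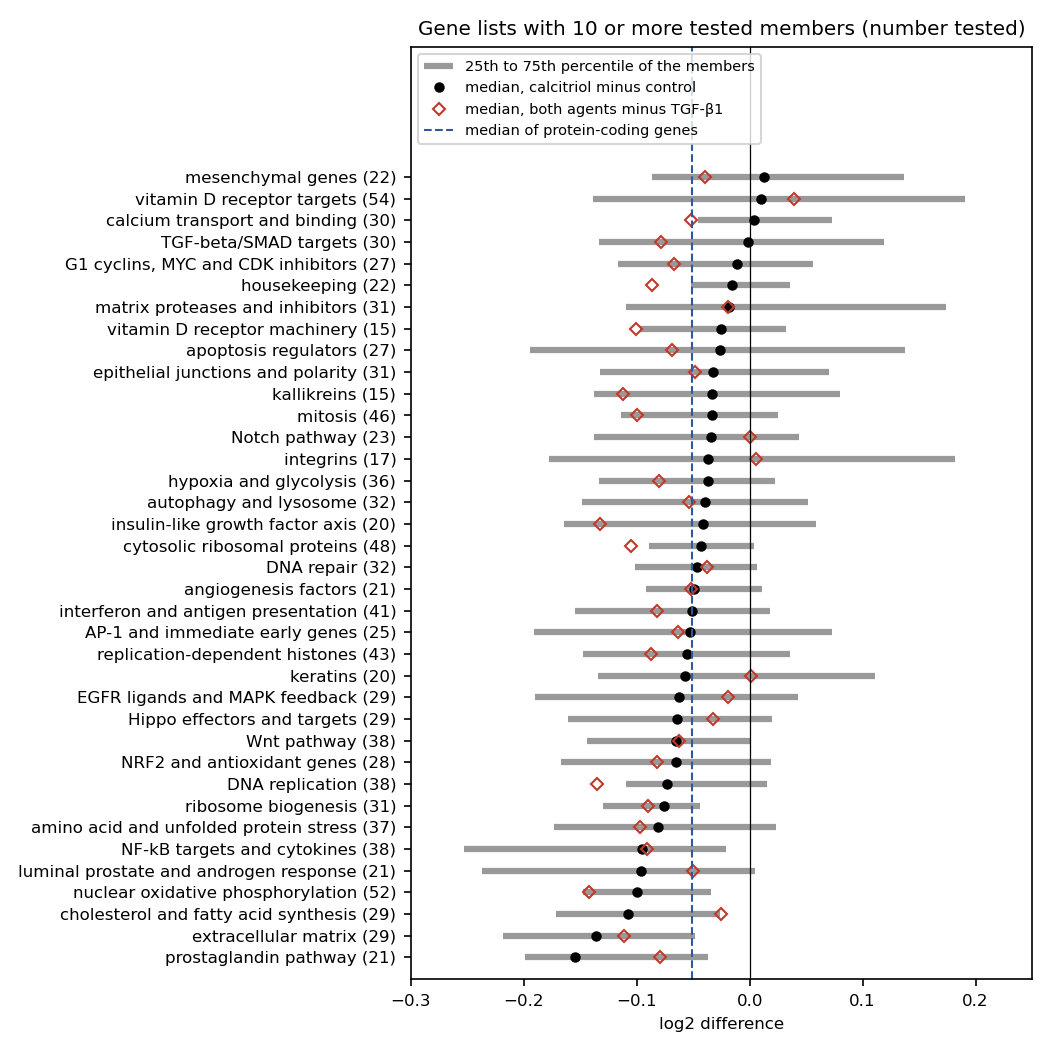
Median log2 difference of each gene list with 10 or more tested members, for calcitriol against control (black circles, with grey bars from the 25th to the 75th percentile of the members) and for both agents against TGF-β1 alone (red diamonds); the dashed line is the median of protein-coding genes. The medians lie between -0.16 for the prostaglandin pathway and 0.01 for mesenchymal genes, and most bars cross the dashed line.

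Among non-coding genes UCA1, a long RNA first described in bladder cancer, lay above background in both groups. It stood at 6.93 and 6.18 in the controls and at 7.56 and 7.64 with calcitriol. The naming rule requires groups that do not overlap. The UCA1 difference of 1.04 ± 0.22 (limma adjusted p = 0.549) was 0.64 with TGF-β1. PARD3-DT was at least 1.60-fold higher, MIR378D2 at least 1.38-fold and MIR548AX at least 1.17-fold, from controls below background, and MIR548AU stood at 5.03 and 3.97 and then at 5.76 and 5.70, with its other feature at a difference of -0.48. In the opposite direction CT62 was at least 1.37-fold lower, and FAM106C stood at 5.33 and 5.78 and then at 5.00 and 4.76. BOLA3-DT, TRPC7-AS1 and the small nucleolar RNA SNORA62 differed by -0.73, -0.71 and -0.67, each with 1 of 2 calcitriol arrays above background. The 4 other features of SNORA62 ran from -0.35 to 0.26, so the value of this gene is uncertain. The adjusted p of these non-coding genes lay between 0.549 and 0.636 in limma.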

How the data were processed

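Groups were taken from the sample titles, and the values are the deposited log2 expression values of the 8 arrays. The submitters' processing notes name RMA, oligo and limma without versions. That the base is log2 is inferred from RMA's usual output, and the genome build is not given in the sources used here. Raw scanner files were not used here. The platform's probe list pairs 36176 of 138745 features with exactly 1 symbol and 1119 with several. It leaves out 98455.

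A feature was kept if it exceeded 4.34, the 50th percentile over the table, on 2 or more arrays, and the brightest feature on average stood for its gene. Group means were estimated jointly from the 8 arrays with limma (version 3.58.1, under R 4.3.3 and version 1.17.8 of data.table), using empirical Bayes moderation, 4 residual degrees of freedom, two-sided tests and Benjamini-Hochberg adjustment over all genes. An adjusted p under 0.05 counts as changed. Fold bounds, given as at least, raise the arrays of the group below background to the background of each array before the means are compared. They leave out replicate error and are not limits of a confidence interval. Exact permutation of 2 against 2 arrays cannot go below p = 0.333, and the number of arrays limits the precision.

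Named genes are those past the threshold, the 12 largest differences in each direction among protein-coding genes with an unadjusted p under 0.05, non-overlapping groups and every array of the higher group above background, up to 3 members of each of 45 lists, 9 checks and 5 non-coding genes in each direction. Members and lists were chosen with earlier results of these data known. The pipeline was tested on simulated data. Deviations of arrays with the same letter correlated between -0.08 and 0.08 across genes, so the letters were not taken as pairs.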

Additional observations from a re-analysis of the deposited data

Results flagged for a closer look

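In 11 of the 108 genes that the rules name, every array moved one way without TGF-β1 and the opposite way with it. None of these differences between the effects passed an adjusted p under 0.05 in limma, where the adjusted p lay between 0.679 and 0.954. Among all 23854 genes tested 3209 lay above both controls, of which 522 lay below both TGF-β1 arrays in the second setting and 980 above them. Another 5543 lay below both controls, of which 564 then lay above both TGF-β1 arrays and 2017 below them. Many of the 108 had to be non-overlapping to be named, so the 11 are read beside these counts only.

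CCSER1 differed by -0.97 with calcitriol alone and by 0.19 when it was added to TGF-β1. GKAP1 gave -0.79 and 0.37. The non-coding genes TRPC7-AS1, FAM106C and SNORA62 gave -0.71, -0.67 and -0.67 without TGF-β1 and 0.47, 0.29 and 0.18 with it. EREG, the EGFR ligand epiregulin, gave -0.39 and 0.52, and STEAP4, a metalloreductase, -0.26 and 0.39. MXI1, an antagonist of MYC, gave 0.26 and -0.25, and the integrin chain ITGA5 gave 0.25 and -0.19. PECAM1, an endothelial adhesion molecule, gave 0.52 and -0.37 from controls below background, and the granin CHGB, with 1 of 4 arrays above background, gave 0.38 and -0.28.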

How the results depend on the processing

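The count of 2 changed genes was 1 with only the 4 control and calcitriol arrays, 19 with a mean-variance trend, 3 with EFL1 added under the above-background filter, protein-coding genes only or loess on them, and 0 to 2 when single arrays were left out (0 without either control, calcitriol or TGF-β1 array). With the replicate letter as a block it was 0 over all 8 arrays and 1 over 4. IGFBP3, at 1.64, then had adjusted p-values of 0.101 and 0.718, and 0.203 with 4 unblocked arrays. CYP24A1, at 4.46, had an adjusted p of 0.137 with the block on 8 arrays. Without single arrays their differences ranged from 1.59 to 1.68 and from 4.44 to 4.47. With TGF-β1 present, the 0 genes changed by calcitriol became 6 with the trend, 1 with the above-background filter and 0 to 1 with arrays left out, and the 0 interactions became 1 with the trend. RXRA reversed to 0.049 with loess on protein-coding genes and ranged from -0.084 to 0.083 with arrays left out, TRPV6 reversed to 0.060 with loess and ranged from -0.023 to 0.0051, and SMAD7 reversed to -0.079 with its features averaged. The cause was not tested. Of the other comparisons of named genes with an alternative, 2101 kept their direction and side of the threshold, 14 passed it newly and 16 no longer passed. List medians moved by less than the spread in 766 comparisons and by more in 158. Many of these outcomes were fixed beforehand, so the counts are no measure of robustness. Alternatives that change only the error estimate, or leave out arrays with TGF-β1, cannot alter a difference or a list median. Genes named for non-overlapping groups cannot change sign when 1 array is left out. Loess scaling on protein-coding genes moved most list medians by more than the spread. Centring on the protein-coding median was chosen after seeing the data. Signal over background limits genes below a level of about 5.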

Other observations

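Features without a gene symbol held 1 further call. Of 98455 such features 46837 passed the filter, and TC1000010393.hg.1 stood at 6.31 and 6.19 in the controls and at 2.32 and 2.93 with calcitriol, a log2 difference of -3.63 ± 0.21 with an adjusted p of 0.00416 in limma over the unnamed features. It was also low with TGF-β1, at 3.74 and 3.58, and with both agents, at 3.92 and 4.01, so that of the 8 arrays only the controls stood high. TC1000007371.hg.1 showed the same order, at 7.09 and 6.66 in the controls and 3.29 and 4.01 with calcitriol (limma adjusted p = 0.149). In the opposite direction TC2000007791.hg.1 stood at 4.11 and 4.17 and then at 5.82 and 6.44, and was also higher by 1.46 when calcitriol was added to TGF-β1. The names of these features were not analysed here, and they were picked after their values were seen.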
